A study of Mus musculus with 20 samples.

Results

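The genes described here encode the machinery that copies DNA in S phase: factors that license replication origins, the Mcm helicase, primase and polymerases, the sliding clamp and its loader, enzymes that supply deoxynucleotides, and factors that rebuild chromatin behind the fork. They were taken from a list of 40 mouse gene symbols by matching each symbol to probe sets that the platform annotation assigns to that gene alone. This gave 38 genes, on 50 of the 12488 probe sets in the table, of 8251 genes with a probe set of their own. Pole, the catalytic subunit of DNA polymerase epsilon, had no such probe set, and the probe sets of Tyms, thymidylate synthase, carry more than 1 symbol and were not used. Of the 38 genes, 31 gave enough signal to be tested, and Mcm6, Pole2, Pola1, Prim2, Orc1, Dut and Rpa2 did not.

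RNA from the whole prostate was measured on Affymetrix arrays, 1 C57/B6 mouse per array, at an age of 10 to 12 weeks, with 5 mice in each of 4 groups. One group was sham-treated (sham), another was taken 3 days after castration and another at 14 days. The last group had been castrated for 14 days when a 15 mg testosterone pellet was implanted, and was taken 3 days after that (the testosterone group). The last group therefore shares the 14 days of castration with the third, and the comparisons below share groups of arrays. No group was castrated for as long without a pellet, or given a pellet without testosterone. The effects of testosterone, of the implant and of the 3 further days therefore cannot be told apart. Castration makes the gland regress and testosterone makes it regrow, and the design asks which transcripts follow each process. The labels do not say how long after surgery the sham tissue was collected.

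Replication is licensed in G1, when the origin recognition complex, Cdc6 and Cdt1 load the Mcm helicase onto DNA, and geminin blocks a further round once S phase has begun. Many genes of this machinery are transcribed at the G1 to S transition under control of E2F factors, so that their messenger RNAs are abundant in cycling cells and scarce in resting ones. The adult prostate epithelium divides rarely, and its regrowth after androgen is returned involves a wave of cell division. In a whole gland, fewer cells of a type and less RNA per cell cannot be told apart.

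Array medians lay between 154 and 224 signal units and signals between 0 and 28575.8. In 4 arrays the Gapdh transcript gave a 3′ to 5′ log2 signal ratio of 1.82 to 4.54, against -0.53 to -0.08 in the other 16. These arrays are marked in the plots and were left out in an alternative fit: replicates 4 and 5 at 14 days of castration, and replicates 2 and 5 after testosterone. Markers of the tissue were present in all groups, and the prostate secretory gene Pbsn averaged 16904 ± 1569 (SD, n = 5) in sham mice, 4903 ± 854 after 14 days without testes and 10013 ± 1268 after testosterone. Luminal markers did not all move this way, and Krt8 averaged 3605, 7107 and 4823 in the same groups. Of the 11 tested, 4 were lower and 4 higher at 14 days than in sham mice (24.3% and 28.6% of all probe sets, by the test given below).

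Almost the whole machinery stood higher after 3 days of testosterone. Of the 31 genes tested, 29 were higher than after 14 days of castration alone and none was lower, where 18.2% of all 6913 tested probe sets were higher and 26.6% lower (limma, Benjamini-Hochberg adjusted p below 0.05). None of the 31 had a change below 0, so that 0 were lower at an unadjusted p below 0.05 as well (30.9% of all probe sets). The rises ran from 0.37 to 3.74 on the log2 scale, 23 of them were 2-fold or more (4.34% of all probe sets), and for 27 of the 29 the signals of the groups did not overlap (12.3% of all probe sets). The median change was 1.38 over the 31 genes and -0.10 over all probe sets tested. These counts and this median include 12 genes that were tested only because of their signal after testosterone, named in the next paragraph. Log2 changes are of the signal plus 12.7, which understates the change of dim genes. Below, values before testosterone are those of the mice castrated for 14 days, which are other animals than those of the testosterone group.

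The filter for testing asked for a signal above 190.8 on at least 5 of the 20 arrays, and 12 of the 31 genes reached it only with the testosterone arrays counted, so they had to be higher there. These were Pclaf, Rrm2, Tcf19, Uhrf1, Cdc6, Gmnn, Prim1, Rfc3, Rfc4, Cdc45, Chaf1a and Chaf1b. With the filter counted on the other 15 arrays, 19 genes were tested and 17 rose, against 17.2% of the 6730 probe sets then tested. With no filter, 32 of the 38 rose and none fell (0 also at an unadjusted p below 0.05, where 23.2% of all probe sets were lower), against 10.4% of all 12422 probe sets higher and 17.5% lower. The 2 tested genes that did not pass the threshold were Pold1 and Rfc1. Centring each array on its median moved the median change of all probe sets by 0.10. The count of all probe sets then turned from 1259 higher and 1840 lower to 1594 higher and 1389 lower, while the count of replication genes that rose became 30.

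**Figure D1:**
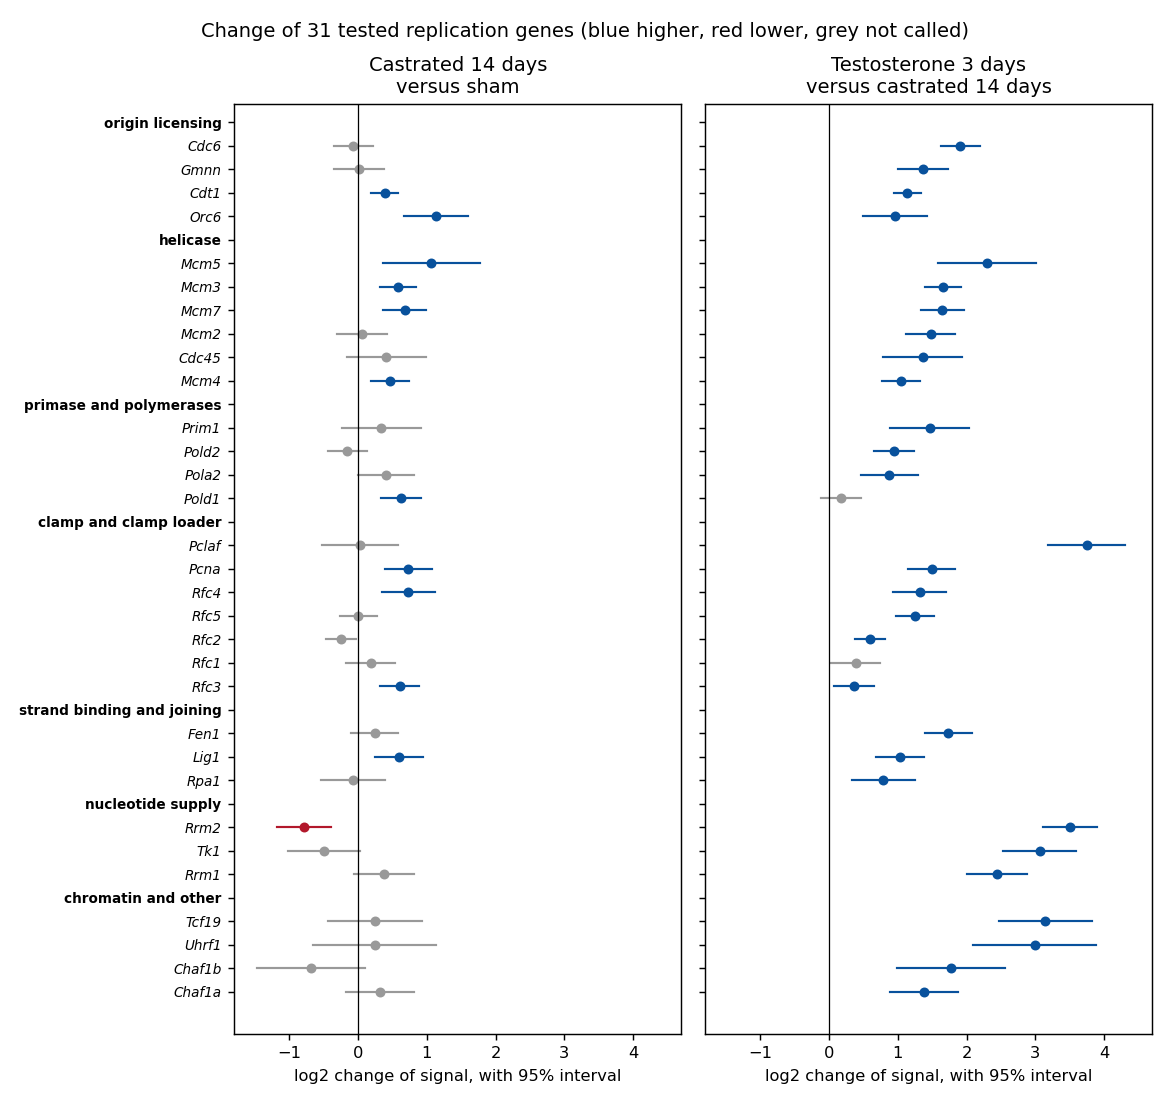
Log2 change of the signal (plus 12.7) with its 95% confidence interval for each of the 31 tested genes by role: castration for 14 days against sham (left) and testosterone for 3 days against castration for 14 days (right), with blue for higher, red for lower and grey for not called. The changes after testosterone lie between 0.18 and 3.74, and those after castration between -0.79 and 1.14.

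The largest rise belonged to Pclaf, the clamp-associated factor that binds Pcna at the fork. Its signals were 71.6, 54.7, 67.8, 70.0 and 40.8 after 14 days of castration and 869.3, 835.6, 1089.3, 926.5 and 1108.6 after testosterone. Every testosterone array stood far above every other array, where the highest value was 111.4. The rise was 13.4-fold (log2 change 3.74 ± 0.26 SE, limma adjusted p = 1.91e-09). In the sham group the same probe set ran from 19.1 to 106.1, so that the regressed gland and the intact one did not differ beyond their spread (log2 change 0.03, adjusted p = 0.927).

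The genes that supply deoxynucleotides moved together, although Rrm2 reached the filter only with the testosterone arrays counted and so had to be higher there. Rrm2, the S phase subunit of ribonucleotide reductase, read 78.0, 82.9, 112.3, 82.1 and 40.6 after 14 days of castration and 1130, 737.8, 1182.1, 1064.4 and 933.1 after testosterone, an 11.4-fold rise (log2 change 3.51 ± 0.19 SE, adjusted p = 5.13e-11). Rrm1, the large subunit of the same enzyme, read 193, 158.2, 172.4, 162.7 and 216.3 before and 1017.7, 786.1, 1124.9, 1003.6 and 1289.9 after the pellet (5.44-fold, log2 change 2.44 ± 0.21 SE, adjusted p = 2.13e-08). Neither gene's groups overlapped, and the lowest testosterone value of each was on replicate 2. Tk1, the thymidine salvage kinase, read 250.2, 219.5, 150.9, 225.3 and 135.8 before and 1526.4, 1254.3, 2026.1, 1774.9 and 1998.8 after (8.35-fold, log2 change 3.06 ± 0.25 SE, adjusted p = 1.35e-08). Dut, which removes dUTP, was the exception among the supply genes measured: it was too dim to test, its mean of 53.7 ± 21.3 after castration stood beside 44.8 ± 14.5 after testosterone, and without the filter its change was -0.18 (adjusted p = 0.742).

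Of the factors grouped as chromatin and other, all 4 rose. All 4 reached the filter only with the testosterone arrays counted, so they had to be higher there. Tcf19, a transcription factor expressed late in G1 and S phase, went from 100.1, 116.5, 133.6, 125 and 23.3 to 704.7, 936, 798.8, 872.8 and 1159.8 (8.85-fold, log2 change 3.15 ± 0.33 SE, adjusted p = 2.73e-07). Uhrf1, which guides maintenance methylation of newly copied DNA, went from 82.9, 96.5, 173.7, 89.5 and 30.1 to 867.9, 526.8, 877.9, 870.2 and 709.4 (7.95-fold, log2 change 2.99 ± 0.43 SE, adjusted p = 1.32e-05). The groups did not overlap for either gene, although the castrated mice differed among themselves by several fold. Chaf1a and Chaf1b, subunits of the chromatin assembly factor that deposits histones behind the fork, rose by 1.38 (adjusted p = 9.41e-05) and 1.78 (adjusted p = 7.09e-04).

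**Figure D2:**
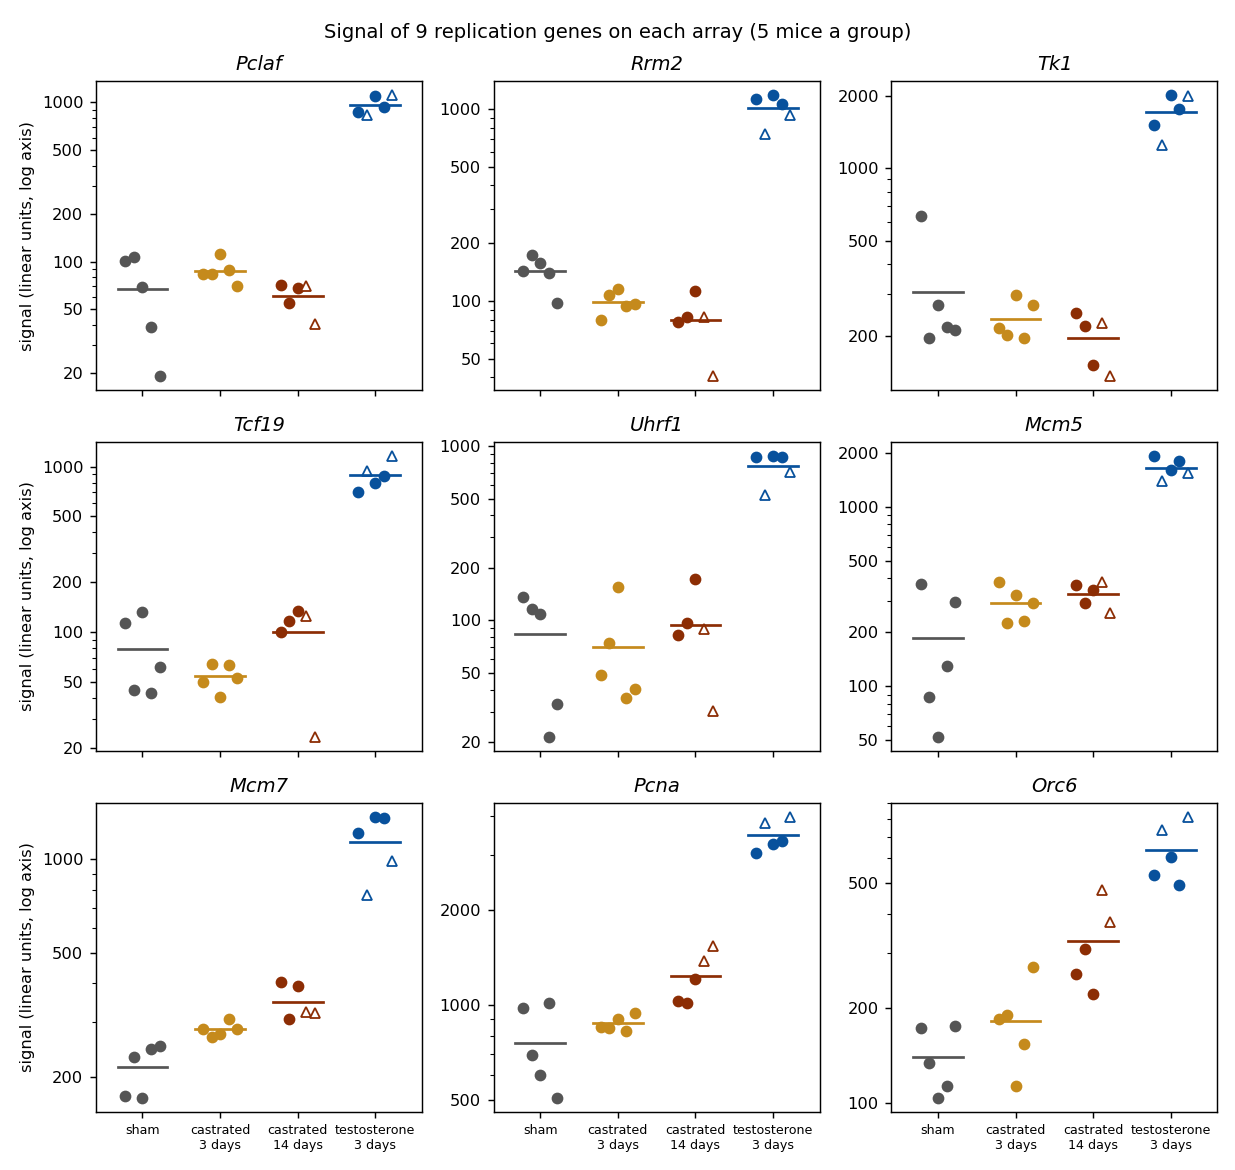
Deposited signal (log axis, linear units) of 9 replication genes on each of the 20 arrays, by group, with the group mean as a line; open triangles mark the 4 arrays with a high Gapdh 3′ to 5′ ratio. For each gene shown, every testosterone array lies above every array of the other groups. Orc6, Pcna, Mcm7 and Mcm5 were also called higher at 14 days of castration than in sham mice, Mcm5 with overlapping groups. Rrm2 was called lower there, also with overlapping groups. Pclaf, Rrm2, Tcf19 and Uhrf1 were tested only because of their signal after testosterone.

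Promoter sequences of these genes are given because the genes rose together and because E2F sites are the classical element of S phase promoters. Of the 38 measured genes, 34 matched the RefSeq promoter table (assembly GRCm38.p6), with 40 transcription starts, and each window runs from 250 bases before the start to 50 after it. The windows were searched on both strands for the E2F words TTTGGCGC, TTTCGCGC, TTTGCCGC and TTTCCCGC, and for CCAAT, the word bound by the factor NF-Y. The sequences of the 5 genes with the largest rise follow, 5′ to 3′ along the gene, with matches to either word in capitals. Pclaf is at chr9:65890073-65890372 on the plus strand, Rrm2 at chr12:24708004-24708303 on the plus strand, Tcf19 at chr17:35516775-35517074 on the minus strand, Tk1 at chr11:117825965-117826264 on the minus strand, and Uhrf1 at chr17:56304063-56304362 on the plus strand, 1 of 2 starts of that gene.
Pclaf: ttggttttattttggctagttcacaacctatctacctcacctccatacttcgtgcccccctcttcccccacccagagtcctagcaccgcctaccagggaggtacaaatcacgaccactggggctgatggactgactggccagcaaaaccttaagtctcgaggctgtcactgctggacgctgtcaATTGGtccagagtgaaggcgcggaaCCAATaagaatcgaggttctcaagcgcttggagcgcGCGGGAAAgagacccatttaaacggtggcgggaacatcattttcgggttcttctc
Rrm2: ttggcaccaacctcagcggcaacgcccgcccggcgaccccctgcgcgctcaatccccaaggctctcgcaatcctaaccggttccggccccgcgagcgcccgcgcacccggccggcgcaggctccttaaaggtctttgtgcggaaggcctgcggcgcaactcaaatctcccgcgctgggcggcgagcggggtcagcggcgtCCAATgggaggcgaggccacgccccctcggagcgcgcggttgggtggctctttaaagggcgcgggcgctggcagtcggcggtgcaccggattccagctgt
Tcf19: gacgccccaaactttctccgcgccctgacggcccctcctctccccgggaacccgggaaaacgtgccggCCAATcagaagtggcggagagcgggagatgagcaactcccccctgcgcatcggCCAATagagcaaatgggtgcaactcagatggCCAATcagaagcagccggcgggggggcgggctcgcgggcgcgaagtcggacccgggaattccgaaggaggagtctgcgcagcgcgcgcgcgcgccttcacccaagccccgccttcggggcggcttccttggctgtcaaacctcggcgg
Tk1: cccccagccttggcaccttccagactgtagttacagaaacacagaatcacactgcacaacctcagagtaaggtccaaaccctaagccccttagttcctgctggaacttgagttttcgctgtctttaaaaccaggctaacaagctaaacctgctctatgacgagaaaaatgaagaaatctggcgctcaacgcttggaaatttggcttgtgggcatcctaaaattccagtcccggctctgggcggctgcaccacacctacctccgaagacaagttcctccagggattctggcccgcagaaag
Uhrf1: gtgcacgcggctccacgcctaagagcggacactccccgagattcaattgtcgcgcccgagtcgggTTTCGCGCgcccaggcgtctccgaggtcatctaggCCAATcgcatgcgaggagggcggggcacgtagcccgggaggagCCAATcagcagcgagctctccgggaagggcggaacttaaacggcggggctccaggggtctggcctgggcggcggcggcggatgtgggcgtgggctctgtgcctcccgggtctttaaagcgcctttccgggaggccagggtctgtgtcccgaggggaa

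The E2F word of Pclaf spans the start itself, from base -5 to base 3, and that of Uhrf1 lies from -185 to -178. Rrm2 carried 1 CCAAT word and Tcf19 carried 3, and the Tk1 window held neither word, which says only that these letters are absent from it. Mcm5, at chr8:75109259-75109558 on the plus strand, and Cdc6, at chr11:98907901-98908200 on the plus strand, were added after the search to show other arrangements. In Mcm5 a pair of E2F matches on opposite strands overlap, from -153 to -146 and from -149 to -142, and in Cdc6 a single match lies from -138 to -131.
Mcm5: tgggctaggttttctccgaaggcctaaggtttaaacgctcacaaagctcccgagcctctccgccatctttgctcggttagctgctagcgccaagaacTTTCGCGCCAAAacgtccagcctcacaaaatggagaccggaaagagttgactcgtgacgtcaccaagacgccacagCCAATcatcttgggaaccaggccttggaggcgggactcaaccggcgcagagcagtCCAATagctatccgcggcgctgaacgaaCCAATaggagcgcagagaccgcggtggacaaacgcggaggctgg
Cdc6: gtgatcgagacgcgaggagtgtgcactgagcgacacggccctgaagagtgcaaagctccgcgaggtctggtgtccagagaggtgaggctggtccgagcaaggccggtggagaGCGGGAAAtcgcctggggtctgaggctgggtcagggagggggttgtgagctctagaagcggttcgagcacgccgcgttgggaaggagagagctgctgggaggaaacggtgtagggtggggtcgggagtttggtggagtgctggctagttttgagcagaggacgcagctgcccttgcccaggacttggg

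An E2F word was found at 14 of the 40 starts (35.0%), against 744 of 32851 starts of all genes in the table (2.26%) and 607 of 21263 starts of protein-coding genes (2.85%). Counted by gene, 14 of 34 had a match (41.2%), against 575 of 17492 protein-coding genes (3.29%). The genes were Mcm3, Mcm5, Mcm6, Mcm7, Orc1, Cdc6, Cdt1, Pola1, Pole2, Pold1, Rfc3, Lig1, Pclaf and Uhrf1. CCAAT was found at 24 of the 40 starts (60.0%), against 37.4% of all starts. Among the 26 matched genes that rose after testosterone, 9 (34.6%) held an E2F word, while Rrm1, Rrm2, Tk1, Tcf19, Pcna and Mcm2 rose without one in these windows. The starts of other genes were not matched to these in base content, and these genes were chosen for their part in S phase. No test was made of the difference in share. A match is a description of letters, and binding was not measured.

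**Figure D3:**
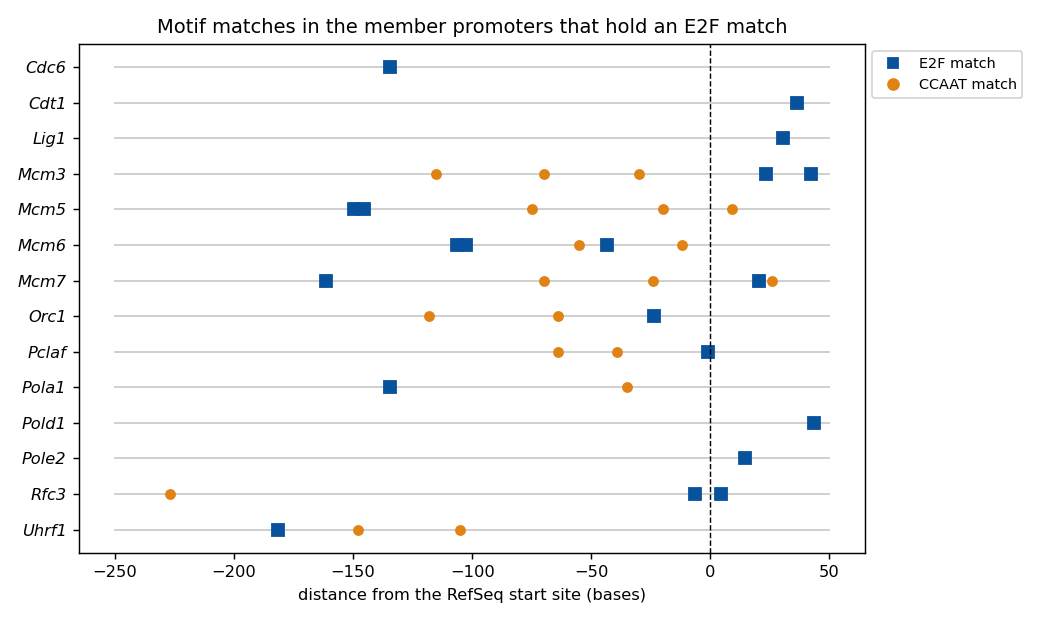
Positions of E2F words (squares) and CCAAT words (circles), in bases from the RefSeq transcription start, in the 14 promoter windows of replication genes that hold an E2F word. The E2F words lie on both sides of the start, from about -165 in Mcm7 and -185 in Uhrf1 to 40 in Pold1.

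The helicase subunits rose together. Mcm5 read 366.8, 292.7, 345.1, 382.4 and 254.9 after 14 days of castration and 1919.7, 1398, 1605.2, 1802.4 and 1540.4 after testosterone (4.90-fold, log2 change 2.29 ± 0.34 SE, limma adjusted p = 1.97e-05). Mcm3 read 321.9, 336.3, 348.6, 298.2 and 317.3 before and 1038.1, 998.3, 963.4, 1036.7 and 1236.7 after (3.16-fold, log2 change 1.66 ± 0.13 SE, adjusted p = 4.71e-09). Mcm7 read 402.6, 306.6, 392.4, 323.8 and 320.7 before and 1218.7, 765.6, 1370.4, 1355 and 988.9 after (3.13-fold, log2 change 1.65 ± 0.15 SE, adjusted p = 4.14e-08). None of these groups overlapped, and for Mcm5 and Mcm7 the lowest testosterone value was on replicate 2. Mcm2 rose by 1.48 ± 0.17 SE, from 213.2 to 243.3 in castrated mice to 498.7 to 851.2 after testosterone (adjusted p = 1.12e-06). Mcm4 rose by 1.05 ± 0.13 SE, from 268.6 to 428.5 to 633.4 to 906.9 (adjusted p = 2.79e-06). Cdc45, which joins Mcm to form the active helicase, rose by 1.36 (adjusted p = 4.98e-04). Mcm6 stayed dim, with a highest value of 53.6 on any array, and without the filter its change was 0.50 (adjusted p = 0.25), with a 95% interval from -0.13 to 1.12.

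All 4 licensing genes that could be tested rose. Cdc6 and Gmnn reached the filter only with the testosterone arrays counted, so they had to be higher there. Cdc6, the loader of the helicase, read 121.5, 129.8, 120, 103.8 and 90.2 before and 451.4, 349.2, 455.8, 471.1 and 579.6 after testosterone (3.75-fold, log2 change 1.91 ± 0.14 SE, adjusted p = 2.15e-09). Cdt1, which loads it together with Cdc6, read 366.5, 457.1, 450.1, 402 and 361.3 before and 860.1, 895.7, 973, 860.1 and 944.4 after (2.20-fold, log2 change 1.13 ± 0.09 SE, adjusted p = 1.48e-08). The spread of Cdt1 within the testosterone group was the lowest among the risen genes, with a coefficient of variation of 5.59%. Gmnn, geminin, the inhibitor of Cdt1, read 147.4, 168.6, 116, 168.6 and 130.7 before and 328.6, 549, 317.2, 290.8 and 565.5 after (2.58-fold, log2 change 1.37 ± 0.17 SE, adjusted p = 3.05e-06). Its high values after testosterone were those of replicates 2 and 5, which have the high Gapdh ratio, and without the 4 such arrays the rise was 1.06. Orc6 rose by 0.96 ± 0.22 SE (adjusted p = 0.00156), and Orc1, below the filter, changed by 0.72 without it (adjusted p = 0.0342), from 25.9 to 62.2 in castrated mice to 74.9 to 88.9.

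Among clamp and loader genes, Pcna, the sliding clamp that tethers polymerases to DNA, was the brightest. It read 1031.4, 1015.3, 1211.7, 1381 and 1544.4 after 14 days of castration and 3034.3, 3804.2, 3242.6, 3324 and 3971.8 after testosterone (2.81-fold, log2 change 1.49 ± 0.16 SE, adjusted p = 5.22e-07). The loader subunits moved by different amounts. Rfc4 rose by 1.32 (adjusted p = 1.08e-05), Rfc5 by 1.25 (adjusted p = 2.73e-07), Rfc2 by 0.60 (adjusted p = 1.12e-04) and Rfc3 by 0.37 (adjusted p = 0.0375). Rfc1, the large subunit, read 349, 361.5, 409.6, 442.3 and 419.2 before and 471.3, 584.8, 508, 469.6 and 575.6 after, so that its groups did not overlap, yet the change of 0.39 missed the threshold (adjusted p = 0.0695; 95% interval 0.03 to 0.74). It passed once the arrays had been centred on their medians (0.49, adjusted p = 0.0293), and the call of Rfc3 was lost in 7 of the 29 settings that tested it (adjusted p up to 0.0958).

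The polymerase genes changed by different amounts. Pold1, the catalytic subunit of DNA polymerase delta, read 459.6, 489.7, 486.1, 468.8 and 489.3 before and 545.4, 415, 570.2, 625.4 and 581.6 after testosterone. Replicate 2, an array with a high Gapdh ratio, fell below all 5 castrated mice. The other 4 lay above them, among them replicate 5, which also has a high ratio. The change of 0.18 did not pass the threshold (limma adjusted p = 0.319, 95% interval -0.12 to 0.47). Its partner Pold2 rose by 0.95 (adjusted p = 1.70e-05), and the primase and polymerase alpha subunits Prim1 and Pola2 rose by 1.46 (adjusted p = 2.44e-04) and 0.88 (adjusted p = 0.00115). Of the genes below the filter, Pole2, the second subunit of polymerase epsilon, read 5.8 to 18.7 in castrated mice and 70.6 to 95.6 after testosterone, a change of 2.11 without the filter (adjusted p = 3.05e-07). Prim2 changed by 1.01 (adjusted p = 0.00125) and Pola1, the catalytic subunit of polymerase alpha, by 0.91 (adjusted p = 0.0117) in the same fit.

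Genes of strand binding and joining rose as well. Fen1, the nuclease that trims Okazaki fragments, read 191, 238.2, 288.7, 263.9 and 158.8 before and 689.4, 786.1, 819.5, 647.3 and 949.7 after testosterone (3.32-fold, log2 change 1.73, adjusted p = 8.67e-08). Lig1, the ligase that seals them, rose by 1.03 (adjusted p = 4.96e-05), from 188.6 to 305.6 to 472.2 to 679. Rpa1, the large subunit of the single-strand binding protein, read 1141.7, 1076.9, 1274.3, 744.9 and 800.7 before and 2050.3, 832.4, 2352.8, 2332.7 and 1582.1 after. Replicate 2 of the testosterone group lay within the castrated range, and the change was 0.79 (adjusted p = 0.00673), or 0.94 (adjusted p = 5.81e-05) without the 4 arrays of high Gapdh ratio. Rpa2 was below the filter and changed by 0.19 (adjusted p = 0.622).

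The mice of the testosterone group did not respond to the same degree on every gene. Over the 29 risen genes, replicate 2 was the lowest of the 5 arrays for 16 and replicate 5 the highest for 14, and both are arrays with a high Gapdh ratio. The coefficient of variation within the group ran from 5.59% for Cdt1 to 34.9% for Rpa1, with a median of 15.2%. Without the 4 such arrays, 29 genes still rose, with Pclaf at 3.65, Rrm2 at 3.47, Tk1 at 3.05 and Tcf19 at 2.64. The part of RNA quality in the remaining differences was not tested.

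Castration for 14 days gave a smaller and mixed picture. Of the 31 tested genes, 11 were higher than in sham mice and 1 was lower, where 28.6% of all probe sets were higher and 24.3% lower, so that the share of replication genes that rose, 35.5%, was near the background. The median change was 0.32 against 0.01 over all probe sets. For 6 of the 11 (Mcm3, Mcm7, Pcna, Pold1, Cdt1 and Orc6) the groups did not overlap, which is 19.4% of the 31 genes beside 19.2% of all probe sets.

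The largest rise after castration was that of Orc6, a subunit of the origin recognition complex, which read 172.7, 133.8, 103.9, 113.5 and 176.1 in sham mice and 257.8, 308.2, 221.5, 476.2 and 377.8 after 14 days (2.20-fold, log2 change 1.14 ± 0.22 SE, adjusted p = 2.69e-04). Every castrated mouse was above every sham mouse. The highest Orc6 values at 14 days, 476.2 and 377.8, were those of replicates 4 and 5, which have the high Gapdh ratio. Orc6 kept its call without the 4 such arrays (limma adjusted p = 0.00399). Pcna read 975.2, 694.7, 598.9, 1011.6 and 507.4 in sham mice, all below the castrated range of 1015.3 to 1544.4, and rose by 0.73 ± 0.16 SE (adjusted p = 9.57e-04). The highest Pcna values at 14 days, 1381 and 1544.4, were on the same replicates. Pcna also kept its call without the 4 arrays (limma adjusted p = 0.0164). The helicase genes Mcm7, Mcm3 and Mcm4 rose by 0.68 (adjusted p = 7.46e-04), 0.59 (adjusted p = 6.88e-04) and 0.47 (adjusted p = 0.00564). Mcm5 rose by 1.07 ± 0.34 SE (adjusted p = 0.0127), with sham values of 371.1, 86.8, 52.3, 130 and 294.7 that overlapped those of castrated mice. That call was lost when only the compared groups were fitted (adjusted p = 0.0544). Mcm2, their partner in the same ring, changed by 0.06 ± 0.17 SE (adjusted p = 0.796, 95% interval -0.30 to 0.42).

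Pold1 rose by 0.63 (adjusted p = 9.17e-04), the loader subunits Rfc4 and Rfc3 by 0.73 (adjusted p = 0.00261) and 0.60 (adjusted p = 0.00118), Lig1 by 0.60 (adjusted p = 0.00534) and Cdt1 by 0.39 (adjusted p = 0.00187). Without the filter Prim2, Pola1 and Rpa2 were also higher, by 1.38, 0.75 and 0.76, and Dut was lower, at -0.91 (adjusted p = 0.0259); 18.7% of all probe sets were then higher and 21.7% lower. The gene that fell in the tested set was Rrm2, which read 142.9, 173.6, 157.2, 140.5 and 97.9 in sham mice and 40.6 to 112.3 after 14 days (log2 change -0.79 ± 0.19 SE, adjusted p = 0.00166). Its groups overlapped through sham replicate 5 and castrated replicate 3. Tk1 changed by -0.50 (adjusted p = 0.106) and did not pass the threshold. Of the genes that rose, Rfc4 and Rfc3 had their highest values at 14 days on replicates 4 and 5, with the high Gapdh ratio. Both kept their call without the 4 such arrays (limma adjusted p = 0.0229 and 0.0188).

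Mitosis genes went both ways at 14 days of castration, with neither count above the background. Of 33 tested from a list of 42, 5 were higher and 7 lower than in sham mice, with a median of -0.30. Over all probe sets tested, 28.6% were higher and 24.3% lower. Of the 33, 23 were tested only because of their signal after testosterone. Markers of other cell types moved over the same interval, against the same background shares. Of 14 macrophage and myeloid markers tested, 13 rose (median 2.06), and the summed signal of all 18 measured ran from 5846.1 to 7497 in sham mice and from 23820.7 to 35705.9 at 14 days, with none listed at 0 on any array. Of 11 fibroblast markers, 9 rose (median 1.09), of 6 endothelial markers 4 rose (median 0.98), of 6 basal epithelial markers 4 rose (median 0.65), and luminal markers split with 4 higher and 4 lower of 11. The summed signal of fibroblast markers ran from 15060.9 to 16686.7 in sham mice and from 25804.5 to 32220 at 14 days. That of endothelial markers ran from 2339.1 to 3066.8 and from 3978.6 to 4779.2. The part of this shift in the replication signals was not tested.

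At 3 days after castration almost nothing had passed the threshold. Lig1 was the only one of the 31 genes called higher than in sham mice and none was called lower, against 9.84% and 4.46% of all probe sets (limma). At an unadjusted p below 0.05, 4 were higher and 1 lower, where 17.7% of all probe sets were higher and 10.1% lower. Lig1 read 165.9, 129.6, 248.5, 192.9 and 121.1 in sham mice and 282.6, 277.6, 315.1, 278.8 and 319.2 at 3 days, with no overlap, as for 6.58% of all probe sets (log2 change 0.78 ± 0.17 SE, adjusted p = 0.00366). The median change was 0.11 over the 31 genes and 0.04 over all probe sets. With each array centred on its median, the count over all probe sets moved from 680 higher and 308 lower to 453 higher and 468 lower.

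Between 3 and 14 days of castration, 8 of the 31 genes rose and 1 fell, where 20.2% of all probe sets rose and 20.4% fell. The 8 are 25.8% of the genes tested. In 5 of them the groups did not overlap, 16.1% of the 31 genes beside 14.8% of all probe sets, so that both shares were near the background. Rfc4 rose most, from 41.3, 50.7, 71.5, 66.5 and 57.6 to 123.1, 101.2, 119.5, 146.4 and 126.2 (log2 change 0.96, adjusted p = 4.75e-04), with no overlap. The others were Orc6 (0.80, adjusted p = 0.00734), Rfc3 (0.54), Pold1 (0.52), Cdt1 (0.49), Pcna (0.48, adjusted p = 0.0255), Mcm3 (0.44) and Mcm4 (0.35, adjusted p = 0.0408). Rfc2 fell by 0.41 (adjusted p = 0.00462). The calls of Mcm4, Pcna and Orc6 were lost in some settings, with adjusted p up to 0.113 for Mcm4 and of 0.194 for Pcna and 0.0693 for Orc6 when the 4 high-Gapdh arrays were omitted. Over the same interval 13 of 14 macrophage markers rose (median 0.89), with summed signals of 12991 to 15470.2 at 3 days and 23820.7 to 35705.9 at 14 days. Skeletal muscle markers rose for 9 of 12 (median 2.66), with summed signals of 2310.4 to 5471.7 and 3618.8 to 32443.3, and ran from 4248.8 to 19295.9 in sham mice and from 12213.6 to 36216.8 after testosterone. No marker of either list was at 0, and the part of these shifts was not tested.

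In the regrowing gland these genes stood above their level in the intact one. All 31 tested genes were higher in the testosterone group than in sham mice, against 23.5% of all probe sets higher and 29.5% lower, with a median of 1.77 against -0.09, and so were all 19 that passed the filter on the other 15 arrays. For 29 the groups did not overlap (15.2% of all probe sets), the exceptions being Rpa1 and Chaf1b, and 25 were 2-fold or more higher (5.8%). Both counts and the median include the 12 genes that were tested only because of their signal after testosterone. Without the filter, 35 of the 38 were higher and Dut was lower (-1.08, adjusted p = 0.01), where 14.2% of all probe sets were higher and 26.7% lower. The highest folds over sham were 13.7 for Pclaf, 10.5 for Tcf19, 10.3 for Mcm5, 9.42 for Uhrf1, 7.09 for Rrm1 and 6.60 for Rrm2. The lowest were Rfc2 (log2 change 0.36, adjusted p = 0.00815) and Rfc1 (0.57, adjusted p = 0.00838). Against 14 days of castration, Pcna was 2.81-fold and Mcm5 4.90-fold higher, and against sham 4.67-fold and 10.3-fold; these comparisons share the testosterone arrays. Of 14 macrophage markers, 13 were also higher than in sham mice (median 0.97), with summed signals of 5846.1 to 7497 in sham mice and 10482.2 to 13609.8 after testosterone. Of 11 fibroblast markers, 8 were higher (median 0.91) and 1 lower, with summed signals of 15060.9 to 16686.7 and 20763.1 to 26382.8. None of these markers was listed at 0, and their part in the difference was not tested.

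**Figure D4:**
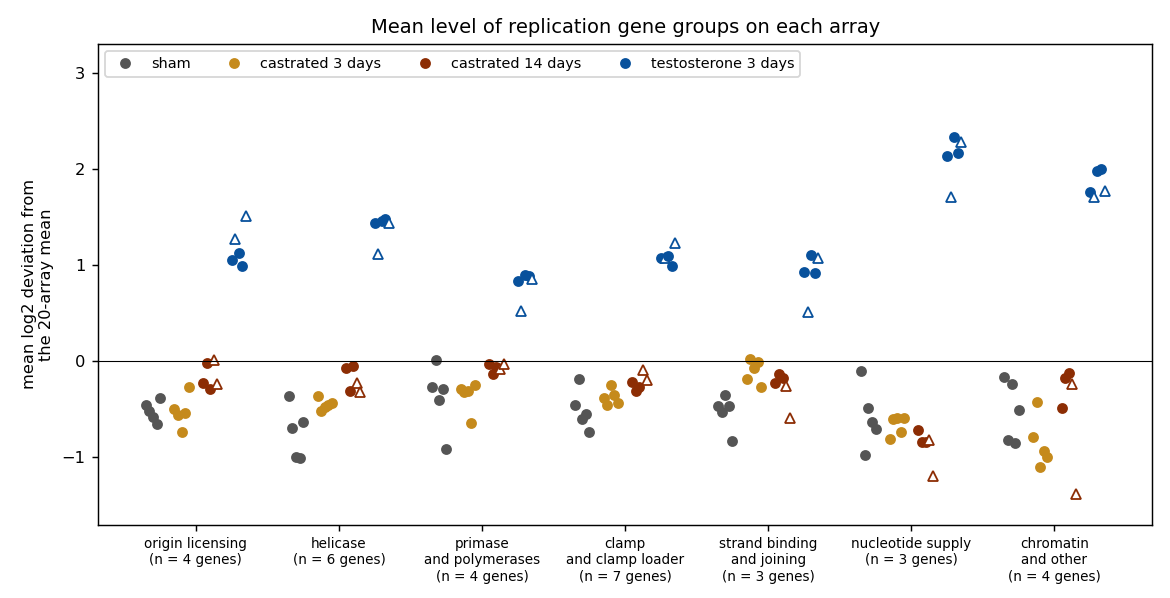
Mean log2 deviation from the 20-array mean over the tested genes of each role, 1 point per array, by group; open triangles mark the 4 arrays with a high Gapdh ratio. In each of the roles every testosterone array lies above every array of the other groups. Only strand binding and joining holds no gene that was tested solely because of its signal after testosterone. Chromatin and other holds only such genes, so its separation is built in by the filter, and that of the remaining roles is so in part.

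Other genes of the pathway were taken from 5 lists of 141 symbols outside the 40 genes, of which 100 had a probe set and 73 were tested. After testosterone, 41 of the 73 rose and 5 fell relative to 14 days of castration, where 18.2% of all probe sets tested rose and 26.6% fell. Of the 73, 7 reached the filter only with the testosterone arrays counted and so had to be higher there: Top2a, Wdhd1, Chek1, Asf1b, Hmgb2, Brca2 and Ube2t. Of the other 66, 34 rose and 5 fell, where 17.2% of all probe sets past the filter on the other arrays rose. Top2a, the topoisomerase that untangles copied strands, rose by 4.43 (adjusted p = 8.79e-10) among initiation and fork factors, where 5 of 12 rose, or 3 of the 10 that passed the filter on the other arrays; Timeless, Wdhd1 and Rpa3 rose by 0.85, 0.83 and 0.52. In nucleotide supply 10 of 20 rose, led by the folate enzyme Mthfd2 (2.31, adjusted p = 1.09e-09), deoxycytidine kinase Dck (1.42), the pyrimidine enzyme Cad (1.21) and Dctpp1 (1.10). Rrm2b, the p53-inducible alternative to Rrm2, fell by 0.45.

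In S phase control, 11 of 15 rose, among them Cks2 (2.34), cyclin A2, Ccna2 (2.11), the checkpoint kinase Chek1 (1.98) and Cks1b (1.36). Without Chek1, which was tested only because of its signal after testosterone, 10 of 14 rose. Wee1, which inhibits cyclin-dependent kinases, Rbl2, a pocket protein of resting cells, and E2f5, which works with such proteins, fell by 0.99, 0.98 and 0.39. Of chromatin assembly genes and histones, 9 of 13 rose, led by the histone chaperone Asf1b (2.35), H2ax (2.15), Hmgb2 (2.03) and Ezh2 (1.30), and the linker histone H1f2 fell by 0.40. Without Asf1b and Hmgb2, which were tested only because of their signal after testosterone, 7 of 11 rose. Of replication-linked repair genes, 6 of 13 rose, with Ube2t (1.91), Rad51ap1 (1.56), Brca2 (1.10) and Rad21 (0.53) at the head. Ube2t and Brca2 were likewise tested only because of that signal, and without them 4 of 11 rose. The genes that fell were named after their values were seen.

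Mitosis genes rose with the replication genes after testosterone. Of 33 tested, 32 rose and Pttg1 fell (-0.30), with a median of 2.51, where 18.2% of all probe sets tested rose and 26.6% fell. Of the 33, 23 reached the filter only with the testosterone arrays counted, Mki67, Kif20a, Cdk1 and Nusap1 among them, and so had to be higher there; of the other 10, 9 rose and Pttg1 fell. The proliferation antigen Mki67 rose by 5.11 (adjusted p = 3.09e-12), Kif20a by 4.38, the mitotic kinase Cdk1 by 4.34 and Nusap1 by 3.85. The summed signal of the 35 measured ran from 7862.6 to 8797.2 at 14 days of castration and from 32990.8 to 41131.9 after testosterone.

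Cell type markers also moved between these groups, where 18.2% of all probe sets tested rose and 26.6% fell. Of 14 macrophage markers, 13 fell (median -1.11), and their summed signal ran from 10482.2 to 13609.8 after testosterone. Fibroblast markers fell for 7 of 11 and rose for 3, endothelial markers fell for 4 of 6, and smooth muscle markers rose for 7 of 10. Luminal markers rose for 3 of 11 and fell for 3, and their summed signal ran from 36567.3 to 53373.5 before and from 40358 to 45917 after testosterone, so that the groups overlapped. The part of these shifts in the rise of the replication genes was not tested.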

How the data were processed

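Signals for 20 arrays, 1 per mouse, are intensities on a linear scale that the authors deposited after MAS5 version 5.0, per the submitters' processing notes; no further normalization was applied. The trimmed mean of each array lay between 500.207 and 500.32. The labels name no batch, replicate number or pair, and replicates are numbered here in deposition order only as names. Array titles carry running numbers of unstated meaning that run group by group, so a batch of that kind and the treatment cannot be told apart. With 5 arrays a group the precision is limited. P-values measure the spread between mice.

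Of 12488 probe sets, 66 controls were left out. Of the other 12422, 10833 have 1 gene symbol in the platform annotation, 396 several and 1193 none; symbols were checked against RefSeq, which changed 0. Values were log2(signal + 12.7), the 10th percentile of all values. A probe set was tested if its signal exceeded 190.8 (the median over the table) on 5 or more arrays (6913, 55.7%). One linear model of the 4 groups was fitted with limma 3.58.1 in R 4.3.3, using lmFit, contrasts.fit and eBayes, two-sided, with Benjamini-Hochberg adjustment over all probe sets tested in each of 5 comparisons and a threshold of 0.05. A gene is represented by its tested probe set of highest mean. The fit was tested on simulated data. Promoters were searched with Python 3.11.15.

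The members, lists and settings were chosen with earlier results of these data known. Genes are named by this rule: every member, with full values for up to 8 per comparison with the largest change past the threshold and for Pcna and the Mcm genes; up to 4 genes per other list; promoters of the 5 largest rises. Alternatives were pseudocounts of 1 and 43.2, other filters, median centring, quantile normalization, only the compared groups, array weights, omission of 4 arrays, the mean of all probe sets of a gene, and omission of each array.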

Additional observations from a re-analysis of the deposited data

Results flagged for a closer look

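Within groups of 5 arrays, a single sample stood apart from the others in 5 of 124 groups examined on the log2 scale (4.03%), and chance alone flags about 1 in 20. Mcm2 was lowest on replicate 4 of the mice castrated for 14 days at 213.2, where the next value was 235.2 and the highest 243.3. Rrm1 was lowest on sham replicate 2 at 60.1, with the next value at 151.9. Tk1 was highest on sham replicate 1 at 631.6, with the next at 270.2. Tcf19 was lowest on replicate 5 of the mice castrated for 14 days at 23.3, with the next at 100.1. Pola2 was lowest on replicate 2 of the testosterone group at 407.6, with the next at 567.1. Replicates 4 and 5 of the castrated mice and replicate 2 of the testosterone group are among the 4 arrays with a high Gapdh ratio.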

How the results depend on the processing

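Of 82 changes called for single genes over the 5 comparisons, 75 kept their call under every setting that tested them (29 to 31 settings, depending on the gene), 7 lost it under at least 1 and 0 reversed. Of 73 changes that were not called, 16 were called under at least 1 setting. The lost calls are Rfc3 after testosterone, Chaf1b and Rfc1 in the testosterone group against sham, Mcm5 at 14 days of castration against sham, and Mcm4, Orc6 and Pcna between 3 and 14 days. Chaf1b lost its call without sham replicate 2 (adjusted p = 0.068) and Rfc1 without the 4 arrays of high Gapdh ratio (adjusted p = 0.0719).

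Without the filter, genes called lower numbered 2 at 14 days of castration against sham and 1 in the testosterone group against sham. Median centring gave 1 lower at 3 days and 2 lower at 14 days against sham, and quantile normalization 2 lower at 14 days. Fitting only the compared groups gave 2 higher and 1 lower at 3 days and 3 lower between 3 and 14 days. Array weights gave 3 higher and 1 lower at 3 days and 3 lower between 3 and 14 days. Without the 4 arrays, 3 were higher and 1 lower at 3 days, and 2 lower at 14 days. With the filter counted on the 15 other arrays, an alternative chosen after seeing the data, 19 genes were tested, of which 17 rose after testosterone, 19 were higher than in sham and 0 fell at 14 days.

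Leaving out each array gave 1 to 2 higher and 0 to 1 lower at 3 days against sham, 11 to 12 higher and 1 to 2 lower at 14 days, 6 to 9 higher and 1 to 2 lower between them, 28 to 30 higher after testosterone, and 30 to 31 higher than sham. With a pseudocount of 1 the rise of Pclaf after testosterone was 15.8-fold and with 43.2 it was 9.69-fold. No paired analysis was made, because the groups are different mice and the labels give no pairs. Dim probe sets such as those of Mcm6, Pole2 and Dut limit what can be said of those genes.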

Other observations

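Tested genes had 12 further probe sets. Those tested beside the main ones rose after testosterone for Mcm3 (log2 change 1.89) and Cdt1 (1.23). The other 10 were dim and not tested, and in the fit without the filter 1 of them was called, a probe set of Pclaf (1.77, adjusted p = 2.83e-04). The 9 that were not called belonged to genes whose main probe set, apart from Rfc1 and Pold1, rose. Their changes were -0.43 for Mcm5 (adjusted p = 0.316), -0.12 for Rrm1 (adjusted p = 0.794), 0.66 for Tk1 (adjusted p = 0.28) and 0.22 for another probe set of Pclaf (adjusted p = 0.564). The rest were -0.10 for Rfc5, 0.07 for Rfc1, 0.21 for Pola2, 0.04 for Pold1 and 0.06 for Lig1, with adjusted p of 0.684 to 0.943.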
